A study of Mus musculus with 36 samples.

Results

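The 39 protein-coding Hox genes of the mouse, chosen by name from the 52636 genes of the deposited count table, were described by cluster and by paralog number in 3 populations of cells sorted from skeletal muscle. The HoxA cluster holds 11 of them, HoxB 10, HoxC 9 and HoxD 9. In GRCm38 HoxA lies on chromosome 6, HoxB on chromosome 11, HoxC on chromosome 15 and HoxD on chromosome 2. Examples are Hoxa10 at chr6:52231197-52240854, Hoxb7 at chr11:96286623-96290162, Hoxc8 at chr15:102990607-102994111 and Hoxd8 at chr2:74704615-74707933.

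Hox genes encode homeodomain transcription factors that give cells their address along the body axis and the limb. Within a cluster the genes lie in the order in which they are used along that axis: low paralog numbers are expressed from the hindbrain and neck backwards, middle numbers from the trunk, and high numbers in the lumbosacral region and the distal limb. The code laid down in the embryo is kept in many adult connective tissue, perivascular and glial cells, by Polycomb and Trithorax complexes among others, and Hox proteins bind DNA together with the TALE cofactors of the Pbx, Meis and Pknox families.

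RNA sequencing was performed on cells sorted by fluorescence from the S100β-GFP;NG2-dsRed double transgenic mouse, and every library of the study came from such mice. The diaphragm, pectoralis, forelimb and hindlimb muscles of 1 mouse were dissociated together for a sample, so each library mixes body levels. The mice were juveniles from postnatal day 15, up to day 21 by the study's methods and 1 day later by its results. The upper ages given with the samples run from 21 to 46 days. Those upper ages rise by 1 day per sample in listed order, whatever the cell type, and then stay at 46. Whether they are real ages is therefore unknown. The study asked what sets perisynaptic Schwann cells (PSCs), the glia that cover the neuromuscular junction, apart from the other populations. PSCs were the NG2DsRed+/S100GFP+ cells, in which both reporters were on (9 libraries). S100GFP+ cells carried only GFP, driven by the S100β promoter that is active in Schwann cells (8 libraries), and NG2DsRed+ cells carried only dsRed, driven by the NG2 promoter that is active in pericytes and precursor cells (10 libraries). No wild type or untreated group was part of the sort, and each population was defined by reporters rather than by an antibody.

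Counts per library ranged from 5221655 to 9592875, and between 421 and 1298 of them fell on Hox genes. Levels are given as TMM-scaled CPM. In these a gene's count is divided by the library's total over the genes that passed the filter, multiplied by the library's TMM factor. Marker genes fitted the gate of the PSCs: Sox10, a Schwann cell transcription factor, was at 379 to 703 CPM there, 5.57 to 38.8 in S100GFP+ and 1.46 to 9.79 in NG2DsRed+ libraries, and the pericyte gene Rgs5 was at 2775 to 7921 CPM in NG2DsRed+ libraries against 45.2 to 133 in PSCs. The S100GFP+ gate held more than Schwann cells. The summed level of 11 fibroblast markers was 25500 to 55889 CPM there, 1601 to 4691 in PSCs and 3506 to 25278 in NG2DsRed+ libraries, and that of 8 macrophage and leukocyte markers was 1192 to 11219, 34.4 to 571 and 14.2 to 72.4 CPM. In the same order, 13 Schwann cell markers summed to 1456 to 3437, 4394 to 5157 and 307 to 925 CPM. Some libraries stood apart. PSC library 18 had a count on 14616 genes, where the other PSC libraries had 20203 to 22533, and PSC library 31 had 4586 CPM on 9 chondrocyte and tendon markers, where the others had 7.65 to 72.4. S100GFP+ libraries 14, 17 and 22 had counts on 25890, 29103 and 38568 genes against 19669 to 23292 in the rest. Lars2, Gm23935 and Gm15564 together took 3.64 to 36.6% of the counts in PSCs, 19.5 to 39.1% in S100GFP+ and 12.5 to 40.0% in NG2DsRed+ libraries. Calls that changed without S100GFP+ libraries 14, 17 and 22 together are given beside the gene.

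PSCs carried a Hox profile of few genes. By the median over libraries, 15 of the 39 Hox genes reached 1 CPM in PSCs, 21 in S100GFP+ and 26 in NG2DsRed+ cells. The difference lay in HoxA and HoxC rather than HoxB: 2 of 11 HoxA genes reached 1 CPM in PSCs, against 7 in S100GFP+ and 8 in NG2DsRed+ cells, while 8 of 10 HoxB genes did so in PSCs, 5 in S100GFP+ and 8 in NG2DsRed+ cells. For HoxC the numbers were 3, 7 and 7 of 9. The summed Hox level was 63.3 to 123 CPM in PSCs, 52.6 to 136 in S100GFP+ and 137 to 199 in NG2DsRed+ libraries, so PSC and S100GFP+ libraries covered the same range and lay below each NG2DsRed+ library. In sorted bulk samples fewer cells expressing a gene and less of its RNA per cell cannot be told apart.

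**Figure D1:**
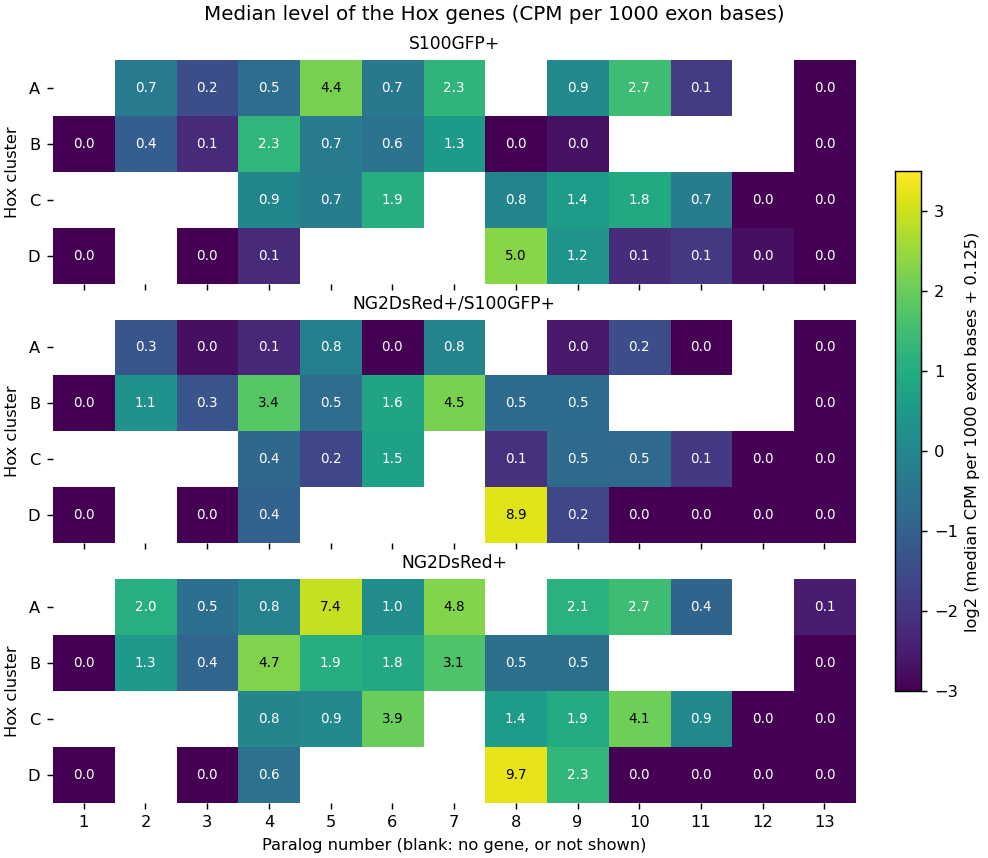
Median level of 38 Hox genes over the libraries of a cell type, in CPM per kb of exon, with clusters A to D in rows and paralog numbers 1 to 13 in columns; blank cells have no gene or one not shown, and the colour is on a log2 scale. Hoxd8 is the highest cell in each of the 3 maps, and the HoxA row is darker in NG2DsRed+/S100GFP+ libraries than in the other 2 maps, while Hoxb2, Hoxb4 and Hoxb7 are brighter there than in S100GFP+ libraries.

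Levels of different genes were compared only per length, as CPM per kb of merged exons. On that scale Hoxd8, a trunk Hox gene, came first in every cell type, with a median of 8.88 in PSCs, 4.97 in S100GFP+ and 9.68 in NG2DsRed+ cells. In PSCs it was followed by Hoxb7 at 4.46, Hoxb4 at 3.36, Hoxb6 at 1.60 and Hoxc6 at 1.52. In S100GFP+ cells the next were Hoxa5 at 4.37, Hoxa10 at 2.68, Hoxb4 at 2.28 and Hoxa7 at 2.27. NG2DsRed+ cells had Hoxa5 at 7.44, Hoxa7 at 4.79, Hoxb4 at 4.72 and Hoxc10 at 4.09. In PSCs the range of Hoxd8, 7.46 to 10.0, lay above that of Hoxb7, 4.09 to 6.61, whereas the ranges of Hoxb7 and Hoxb4, the latter 2.12 to 13.0, overlapped. Neighbours in the orders of the S100GFP+ and NG2DsRed+ cells overlapped in range as well, Hoxd8 and Hoxa5 included. As a description over the 25 Hox genes that passed the filter on low counts, Spearman's correlation of the median levels per length was 0.884 between S100GFP+ and NG2DsRed+ cells, 0.51 between PSCs and NG2DsRed+ cells and 0.295 between PSCs and S100GFP+ cells. These 25 points share libraries and gene lengths.

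Differences were tested for the 25 Hox genes that passed the filter, in 1 quasi-likelihood fit of edgeR over 15330 genes and the 3 cell types, with Benjamini-Hochberg adjustment over all 15330 and a threshold of 0.05. The other 14 were too low to test and are described further on. Against S100GFP+ cells, 17 of the 25 differed in PSCs, 6 higher and 11 lower, where 47% of all genes tested differed (22.9% higher and 24.1% lower). Against NG2DsRed+ cells 16 were lower in PSCs and 0 higher, where 44% of all genes differed (20.9% higher and 23.1% lower). At an unadjusted p under 0.05 edgeR had 0 higher there too, and DESeq2 called 0 higher. The comparisons share their libraries and are not independent of each other.

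PSCs had less of each of the 7 HoxA genes that passed the filter than either other cell type. Hoxa5, which patterns the neck, lung and upper trunk, was at 0.175 to 3.00 CPM in PSCs (median 1.41), at 3.34 to 12.5 in S100GFP+ (median 8.20) and at 8.82 to 25.7 in NG2DsRed+ libraries (median 14.0). No PSC library reached the level of any other library. Hoxa5 was 5.34-fold lower in PSCs than in S100GFP+ cells (log2 fold change -2.42 ± 0.33 SE, adjusted p = 5.2e-07) and 10.7-fold lower than in NG2DsRed+ cells (-3.41 ± 0.33, adjusted p = 1.0e-09). Hoxa10, a gene of the posterior trunk and the limb, was at 0.0788 to 2.42 CPM in PSCs (median 0.778), 4.12 to 11.1 in S100GFP+ (median 8.78) and 6.47 to 11.2 in NG2DsRed+ libraries (median 8.70). The PSC range again lay below both others, by 8.61-fold (-3.11 ± 0.39, adjusted p = 1.0e-07) and 9.05-fold (-3.18 ± 0.38, adjusted p = 5.6e-08). Hoxa9, which acts beside Hoxa10 in the limb and in blood progenitors, was at 0 to 1.86 CPM in PSCs (median 0.259), 1.74 to 9.58 in S100GFP+ (median 5.24) and 8.97 to 15.9 in NG2DsRed+ libraries (median 11.7). It gave the largest Hox difference from NG2DsRed+ cells, -4.38 ± 0.45 on the log2 scale (adjusted p = 3.0e-09), with no overlap. Against S100GFP+ cells it was -3.22 ± 0.45 (adjusted p = 6.1e-07), with PSC library 31, the highest of the PSCs, above the lowest S100GFP+ library. Hoxa7, a trunk gene, was at 0.175 to 4.81 CPM in PSCs (median 2.35), 4.43 to 13.0 in S100GFP+ (median 6.52) and 10.0 to 15.5 in NG2DsRed+ libraries (median 13.8), that is -1.89 ± 0.35 (adjusted p = 5.3e-05) and -2.68 ± 0.35 (adjusted p = 2.3e-07).

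The anterior HoxA genes were closer to the limit of detection. Hoxa2, which patterns the second branchial arch, was at 0 to 1.11 CPM in PSCs (median 0.519), 0.625 to 5.44 in S100GFP+ (median 1.20) and 1.96 to 6.13 in NG2DsRed+ libraries (median 3.58). Its difference from S100GFP+ cells, -1.69 ± 0.50 (adjusted p = 0.0068), became -0.90 (adjusted p = 0.187) without S100GFP+ libraries 14, 17 and 22, while the one from NG2DsRed+ cells was -2.71 ± 0.49 (adjusted p = 3.6e-05). Hoxa3, a gene of the pharyngeal glands, was at 0 to 2.00 CPM in PSCs (median 0.157), 0 to 5.27 in S100GFP+ (median 1.46) and 1.94 to 4.91 in NG2DsRed+ libraries (median 3.12). It was -3.11 ± 0.69 from NG2DsRed+ cells (adjusted p = 5.2e-04). From S100GFP+ cells it was -2.17 ± 0.72 (adjusted p = 0.0137), a call that was lost without S100GFP+ library 22 (-1.65, adjusted p = 0.0619), without libraries 14, 17 and 22 (-1.31, adjusted p = 0.198) and with the share of Lars2, Gm23935 and Gm15564 in the model (-1.54, adjusted p = 0.0651). Antisense transcripts cover 25.4% of the exon bases of Hoxa3 and 20.4% of those of Hoxa7, and the library kit does not mark strand, so their counts may include antisense reads.

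**Figure D2:**
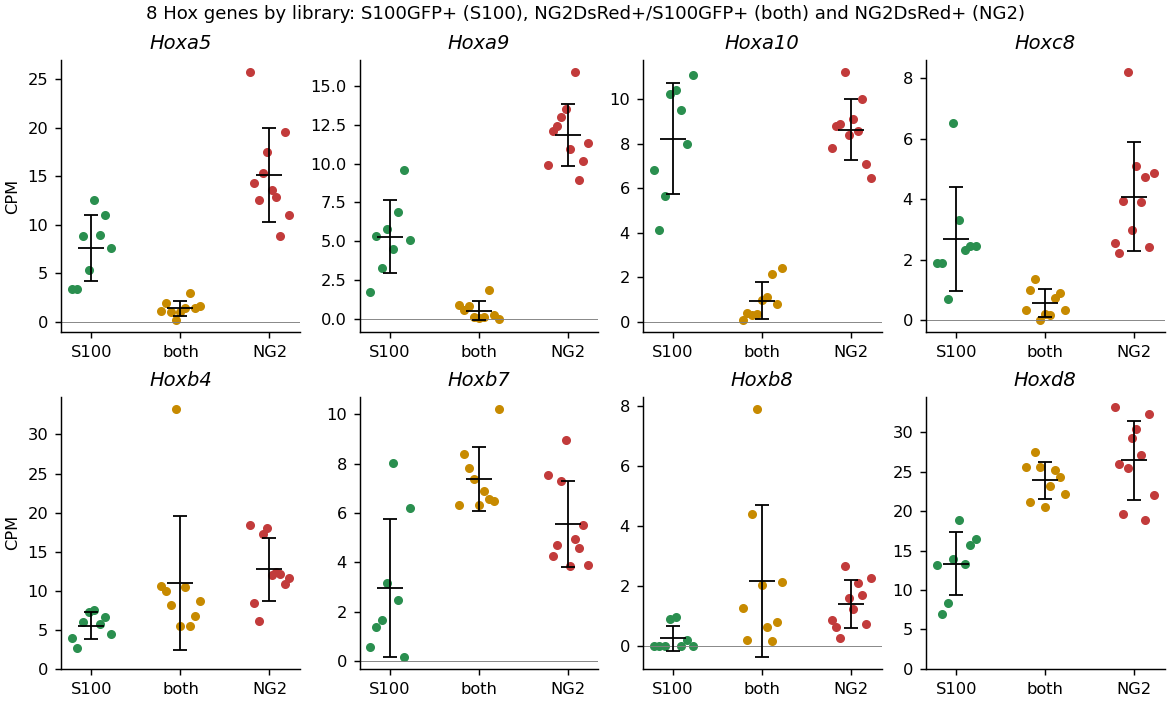
CPM of 8 Hox genes in every library of S100GFP+ (8 libraries), NG2DsRed+/S100GFP+ (9 libraries, axis label "both") and NG2DsRed+ cells (10 libraries); each point is a library, the long tick is the mean and the bars are 1 SD. The 4 genes of the upper row (Hoxa5, Hoxa9, Hoxa10, Hoxc8) are lowest in NG2DsRed+/S100GFP+ libraries, and those of the lower row (Hoxb4, Hoxb7, Hoxb8, Hoxd8) are not.

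HoxB went another way. Against S100GFP+ cells 5 of the 8 HoxB genes tested rose in PSCs and 0 fell, and against NG2DsRed+ cells 7 did not pass the threshold and 1, Hoxb5, was lower. Hoxb7, a trunk gene, was at 6.31 to 10.2 CPM in PSCs (median 6.89), 0.174 to 8.04 in S100GFP+ (median 2.06) and 3.86 to 8.94 in NG2DsRed+ libraries (median 4.82). It was 2.55-fold higher in PSCs than in S100GFP+ cells (1.35 ± 0.41, adjusted p = 0.0072). Its difference from NG2DsRed+ cells was 0.41 ± 0.36, with a 95% interval of -0.34 to 1.16. Hoxb8, which also acts in the trunk and in haematopoietic and sensory cells, had no count in 5 of 8 S100GFP+ libraries and at most 0.946 CPM, against 0.143 to 7.88 CPM in PSCs (median 1.26) and 0.254 to 2.67 in NG2DsRed+ libraries (median 1.41). The difference between PSCs and S100GFP+ cells was 3.15 ± 0.83 (adjusted p = 0.0024), and that between PSCs and NG2DsRed+ cells was 0.62 ± 0.64 with an interval of -0.70 to 1.93. PSC libraries thus differed among themselves by more in Hoxb8 than in Hoxb7: the SD over PSC libraries was 117% of the mean for Hoxb8 and 17.4% for Hoxb7. Hoxb8 had 157 counts in all over PSC libraries and Hoxb7 583, and lower counts alone widen this spread.

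Hoxb4, a gene of the neck and of blood stem cells, was at 5.43 to 33.3 CPM in PSCs (median 8.63), 2.62 to 7.57 in S100GFP+ (median 5.86) and 6.09 to 18.4 in NG2DsRed+ libraries (median 12.1). The highest value belonged to PSC library 18, and the next PSC library was at 10.6. It was 0.99 ± 0.32 higher than in S100GFP+ cells on the log2 scale (adjusted p = 0.011) and -0.22 ± 0.29 from NG2DsRed+ cells (adjusted p = 0.573). Without library 18 the latter became -0.56 (adjusted p = 0.0365), and with sample weights (limma-voom) the former no longer passed (0.68, adjusted p = 0.0562). Hoxb2, a hindbrain gene, was at 2.22 to 15.9 CPM in PSCs (median 3.86), 0.277 to 3.07 in S100GFP+ (median 1.25) and 2.20 to 8.09 in NG2DsRed+ libraries (median 4.56). The difference from S100GFP+ cells was 2.07 ± 0.42 (adjusted p = 1.4e-04) and that from NG2DsRed+ cells 0.20 ± 0.36, interval -0.53 to 0.93. Hoxb3, its neighbour, was at 0.143 to 3.79 CPM in PSCs (median 1.21), 0 to 1.48 in S100GFP+ (median 0.392) and 1.24 to 6.95 in NG2DsRed+ libraries (median 1.79). Its difference from S100GFP+ cells, 1.61 ± 0.58 (adjusted p = 0.0238), did not pass when PSC library 36 was left out (1.40, adjusted p = 0.0509), and was 0.67 (adjusted p = 0.401) once the Lars2, Gm23935 and Gm15564 share entered the model. Hoxb3os, which runs antisense, covers 52.9% of the exon bases of Hoxb3 and 27.3% of those of Hoxb2.

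The middle HoxB genes were less uniform. Hoxb6, a trunk gene, was at 0.175 to 6.60 CPM in PSCs (median 3.15), 0 to 4.49 in S100GFP+ (median 1.12) and 2.41 to 7.65 in NG2DsRed+ libraries (median 3.47). Between PSCs and S100GFP+ cells its difference was 1.04 ± 0.59 (adjusted p = 0.152), which became 1.47 (adjusted p = 0.0497) without S100GFP+ library 17, 2.61 (adjusted p = 0.0033) without libraries 14, 17 and 22 and 2.45 (adjusted p = 0.0013) under limma-voom. The 5 S100GFP+ libraries other than 14, 17 and 22 held 16 Hoxb6 counts. Hoxb9, the most posterior HoxB gene that was tested, had log2 differences of 1.72 ± 0.79 from S100GFP+ (adjusted p = 0.0745) and 0.04 ± 0.67 from NG2DsRed+ cells (adjusted p = 0.970), and the former passed without PSC library 18 (1.93, adjusted p = 0.0311), S100GFP+ library 17 (2.17, adjusted p = 0.0362) or S100GFP+ library 22 (2.43, adjusted p = 0.021). Under limma-voom it was 3.06 (adjusted p = 0.001), and without S100GFP+ libraries 14, 17 and 22 it was 5.44 (adjusted p = 2.0e-04), a fitted value against 5 libraries with 1 Hoxb9 count in all, so its size is poorly set. Hoxb5, a gene of the neck and enteric nervous system, was the exception. It was at 0.175 to 5.68 CPM in PSCs (median 1.41), 0.290 to 5.55 in S100GFP+ (median 1.93) and 4.10 to 9.42 in NG2DsRed+ libraries (median 5.40). It was lower in PSCs than in NG2DsRed+ cells (-1.53 ± 0.44, adjusted p = 0.0055), and from S100GFP+ cells its difference was -0.24 ± 0.47, interval -1.19 to 0.72.

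Sequences before the start of Hoxa5, Hoxb4, Hoxb8 and Hoxd8 are printed for reference, as 250 bases upstream of the RefSeq start in GRCm38.p6. With all libraries, Hoxa5 was called lower for PSCs against S100GFP+ and against NG2DsRed+ cells, and the other 3 genes against neither. Of the 39 genes 22 have an entry in that set. Capitals mark any match, on either strand, to 6 short motifs, which are the Pbx and Hox pair TGATNNAT, the Meis and Pknox motif TGACAG, the homeodomain core TAATTA, the CCAAT box, the Sp1 box GGGCGG and the start-site box TATAAA. None of the 4 windows overlaps an annotated exon.
Hoxa5, chr6:52204588-52204837, minus strand: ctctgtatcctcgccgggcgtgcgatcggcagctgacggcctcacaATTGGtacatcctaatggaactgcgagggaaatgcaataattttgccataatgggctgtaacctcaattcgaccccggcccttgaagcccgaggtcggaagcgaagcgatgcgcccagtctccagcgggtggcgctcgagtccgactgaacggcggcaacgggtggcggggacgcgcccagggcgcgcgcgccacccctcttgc
Hoxb4, chr11:96318017-96318266, plus strand: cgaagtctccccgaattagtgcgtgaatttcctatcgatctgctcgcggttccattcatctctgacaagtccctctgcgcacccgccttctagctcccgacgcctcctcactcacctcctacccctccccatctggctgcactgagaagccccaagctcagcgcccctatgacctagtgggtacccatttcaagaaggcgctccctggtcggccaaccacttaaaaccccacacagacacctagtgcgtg
Hoxb8, chr11:96281655-96281904, plus strand: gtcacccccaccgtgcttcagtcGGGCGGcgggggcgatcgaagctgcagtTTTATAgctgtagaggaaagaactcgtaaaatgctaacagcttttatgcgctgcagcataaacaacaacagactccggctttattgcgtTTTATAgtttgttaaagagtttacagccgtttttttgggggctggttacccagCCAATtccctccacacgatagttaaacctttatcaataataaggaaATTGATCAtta
Hoxd8, chr2:74704365-74704614, plus strand: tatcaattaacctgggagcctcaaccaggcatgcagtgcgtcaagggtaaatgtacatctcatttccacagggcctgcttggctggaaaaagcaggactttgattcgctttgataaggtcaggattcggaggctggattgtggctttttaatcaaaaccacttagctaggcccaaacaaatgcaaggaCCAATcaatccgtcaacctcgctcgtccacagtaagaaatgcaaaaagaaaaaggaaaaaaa
Hoxb8 holds the Pbx and Hox pair once, CCAAT once, GGGCGG once and TATAAA at 2 places, Hoxa5 and Hoxd8 hold CCAAT once each, and Hoxb4 holds none of the 6. Over 32526 distinct mouse promoter windows of the same length, 7.66% hold TGATNNAT, 15.8% TGACAG, 4.84% TAATTA, 33.8% CCAAT, 33% GGGCGG and 12.3% TATAAA. Over the 24 windows of the 22 Hox genes the numbers were 4, 2, 2, 14, 10 and 4. A match is a run of letters and not a bound site.

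HoxC genes were lower in PSCs than in NG2DsRed+ cells in 7 of the 7 tested, and lower than in S100GFP+ cells in 4 of 7. Hoxc8, which sets thoracic identity, was at 0 to 1.36 CPM in PSCs (median 0.316), 0.692 to 6.53 in S100GFP+ (median 2.37) and 2.20 to 8.19 in NG2DsRed+ libraries (median 3.92). The PSC and NG2DsRed+ ranges did not meet (-2.82 ± 0.46, adjusted p = 9.8e-06), and the difference from S100GFP+ cells was -2.22 ± 0.47 (adjusted p = 3.0e-04). Hoxc11, a lumbosacral and hindlimb gene, was at 0 to 0.730 CPM in PSCs (median 0.286), 0.625 to 3.88 in S100GFP+ (median 1.44) and 0.618 to 5.32 in NG2DsRed+ libraries (median 1.91), or -2.55 ± 0.55 (adjusted p = 3.6e-04) and -2.86 ± 0.54 (adjusted p = 6.5e-05). Hoxc5, a cervical gene, was at 0 to 1.43 CPM in PSCs (median 0.626), 0.875 to 5.29 in S100GFP+ (median 2.21) and 1.13 to 4.56 in NG2DsRed+ libraries (median 2.89), or -1.98 ± 0.48 (adjusted p = 0.0011) and -2.21 ± 0.46 (adjusted p = 2.5e-04). Hoxc6, of the forelimb level, was the HoxC gene with the highest PSC level. It was at 2.33 to 7.88 CPM in PSCs (median 3.65), 2.37 to 6.88 in S100GFP+ (median 4.66) and 4.96 to 12.6 in NG2DsRed+ libraries (median 9.45), with a log2 difference of -1.14 ± 0.25 from NG2DsRed+ cells (adjusted p = 5.0e-04) and of -0.11 ± 0.27 from S100GFP+ cells, interval -0.66 to 0.44.

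For the remaining HoxC genes single libraries mattered. Hoxc10, a hindlimb gene, was at 13.8 CPM in PSC library 18 and at 0.191 to 3.89 in the other 8 PSC libraries, against 2.00 to 11.1 in S100GFP+ (median 3.42) and 5.71 to 12.8 in NG2DsRed+ libraries (median 7.81). Its difference from S100GFP+ cells was -0.90 ± 0.55 with all libraries (adjusted p = 0.182), -1.88 without library 18 (adjusted p = 4.8e-04) and -2.01 under limma-voom (adjusted p = 2.3e-04). From NG2DsRed+ cells it was -1.70 ± 0.53 (adjusted p = 0.0093). Hoxc9, a thoracic gene, was lower in PSCs than in S100GFP+ cells (-1.26 ± 0.44, adjusted p = 0.0203), which was lost without S100GFP+ libraries 14, 17 and 22 (-0.84, adjusted p = 0.202) and under limma-voom (-1.20, adjusted p = 0.063), and lower than in NG2DsRed+ cells (-1.91 ± 0.43, adjusted p = 5.4e-04). Hoxc4, a cervical gene, was -1.17 ± 0.44 from NG2DsRed+ cells (adjusted p = 0.0322). That call was lost when any 1 of PSC libraries 4, 12, 20 and 34 and NG2DsRed+ libraries 13 and 35 was left out, with adjusted p between 0.0512 and 0.0854, and without S100GFP+ libraries 14, 17 and 22, which share the model (adjusted p = 0.0556). Its difference from S100GFP+ cells was -0.91 ± 0.47 (adjusted p = 0.109), and passed without PSC library 36 (-1.22, adjusted p = 0.0305).

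Among the HoxD genes Hoxd8 was the steadiest member in PSCs. It was at 20.5 to 27.5 CPM in PSCs (median 24.4), 7.00 to 18.9 in S100GFP+ (median 13.6) and 18.9 to 33.2 in NG2DsRed+ libraries (median 26.6). Every PSC library lay above every S100GFP+ library, at 1.80-fold (0.85 ± 0.17, adjusted p = 1.3e-04), and the difference from NG2DsRed+ cells was -0.14 ± 0.16, interval -0.46 to 0.18. The SD over PSC libraries was 9.75% of the mean, the lowest share of the 15 Hox genes with a median of 1 CPM or more in PSCs. Hoxd8 also had the most counts of them there, 1882 in all, and lower counts alone widen this spread in the others. Hoxd4 was at 0 to 2.61 CPM in PSCs (median 1.16), 0 to 1.38 in S100GFP+ (median 0.276) and 0.508 to 2.63 in NG2DsRed+ libraries (median 1.62), and it differed from S100GFP+ cells by 1.28 ± 0.65 (adjusted p = 0.104). That difference passed without PSC library 18 (1.49, adjusted p = 0.0373) or S100GFP+ library 11 (1.77, adjusted p = 0.0397), and under limma-voom (2.20, adjusted p = 0.0057). The exons of Hoxd4 share 52.3% of their bases with Hoxd3 and another gene of the same strand, so its level is uncertain. Hoxd9, the only posterior HoxD gene that was tested, was at 0 to 5.61 CPM in PSCs (median 0.429), 1.11 to 4.88 in S100GFP+ (median 2.49) and 2.66 to 8.80 in NG2DsRed+ libraries (median 4.96). It was lower in PSCs than in NG2DsRed+ cells (-1.78 ± 0.53, adjusted p = 0.0071) and -0.72 ± 0.55 from S100GFP+ cells (adjusted p = 0.299). Under limma-voom the latter difference passed (-1.685, adjusted p = 0.0204).

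**Figure D3:**
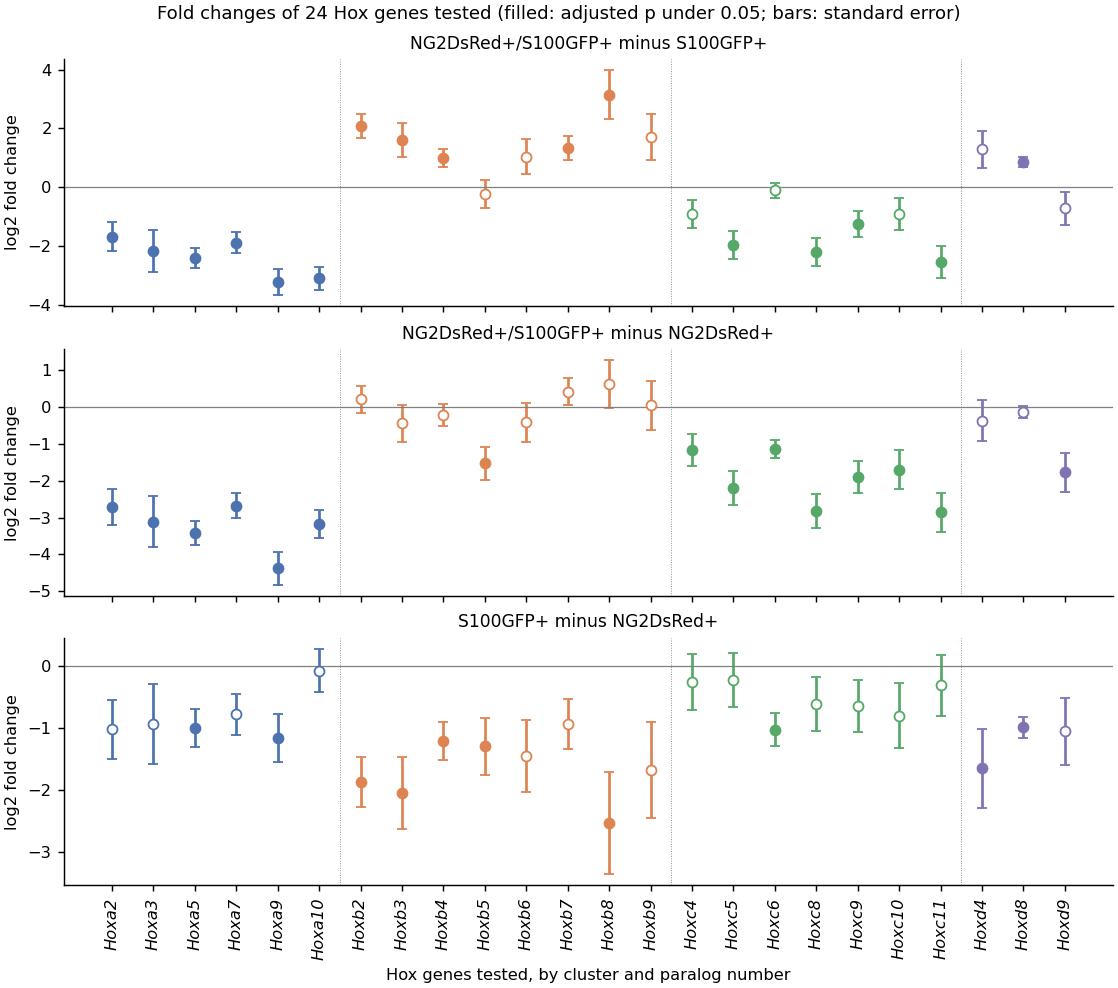
Log2 fold changes of 24 of the 25 Hox genes tested, in order of cluster and paralog number, for the 3 comparisons; bars are the standard error and filled points have an adjusted p under 0.05 (edgeR). In the upper panel the HoxA points lie below 0 and 7 of the 8 HoxB points above it, in the middle panel the HoxA and HoxC points lie below 0 and 7 of 8 HoxB points were not called, and in the lower panel every point lies below 0.

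Groups that do not overlap at all were counted apart from the test. Between PSCs and S100GFP+ cells 3 of the 25 genes did so (Hoxd8 above, Hoxa5 and Hoxa10 below), where 15.5% of all genes tested did (5.24% above and 10.3% below). Between PSCs and NG2DsRed+ cells 7 did so, all below, among them Hoxa2, Hoxa5, Hoxa7, Hoxa9, Hoxa10 and Hoxc8, where 13.9% of all genes did (5.08% above and 8.83% below). Of the 7, 6 are HoxA genes.

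The balance of clusters was then taken within each library, where depth and scaling cancel. The summed level per length of the 10 HoxB genes over that of the 11 HoxA genes was 2.09 to 63.3 in PSCs (median 6.29), 0.284 to 0.645 in S100GFP+ (median 0.451) and 0.486 to 0.875 in NG2DsRed+ libraries (median 0.709). HoxB was thus above HoxA in every PSC library and below it in every other library. Among PSC libraries the ratio was 4.41 in library 4, 3.14 in 6, 8.80 in 12, 63.3 in 18, 8.12 in 20, 6.29 in 23, 2.09 in 31, 6.29 in 34 and 6.09 in 36. The extremes belonged to the 2 PSC libraries that stood apart: without libraries 18 and 31 the PSC range was 3.14 to 8.80. As shares of the summed Hox level per length, HoxA made up a median of 7.37% in PSCs (0.815 to 18.5), 36.9% in S100GFP+ (34.4 to 45.3) and 35.6% in NG2DsRed+ libraries (28.7 to 40.3). HoxB made up 46.3% (38.8 to 51.6), 17.2% (11.5 to 23.5) and 23.6% (18.1 to 28.1), HoxC 12.8%, 24.5% and 22.5%, and HoxD 31.8%, 17.5% and 18.2%. Ranges of PSCs met neither other cell type for HoxA or HoxB. The HoxA sum itself, in CPM per kb, was 0.403 to 5.86 in PSCs, 6.93 to 20.8 in S100GFP+ and 18.3 to 28.0 in NG2DsRed+ libraries, and the HoxB sum 11.3 to 25.5, 2.57 to 13.4 and 10.8 to 22.0. The part that other cell types had in these levels was not tested.

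**Figure D4:**
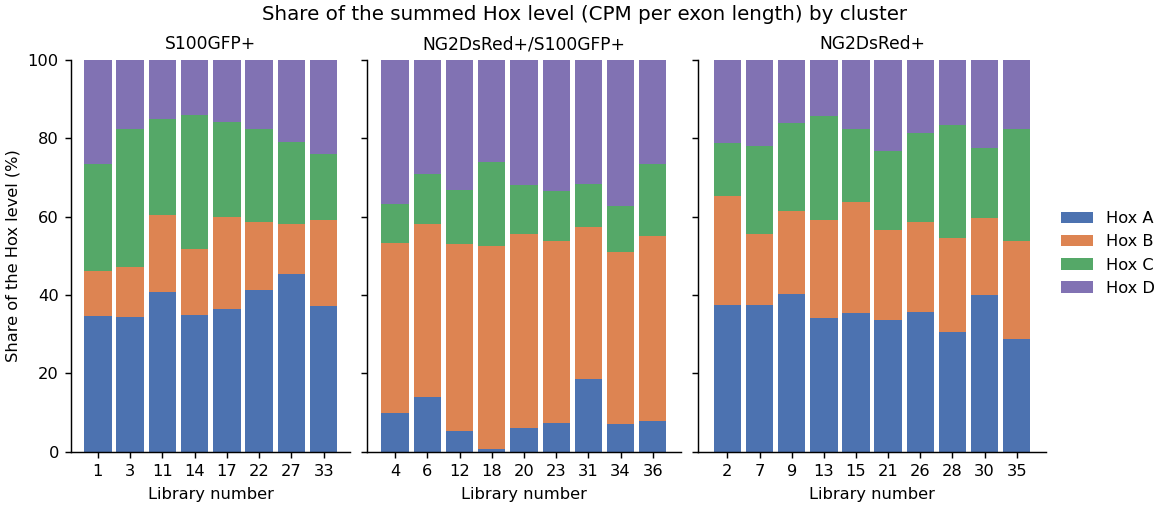
Share of the summed Hox level (CPM per exon length) that falls on clusters A, B, C and D, as stacked bars of 100% for each library of S100GFP+, NG2DsRed+/S100GFP+ and NG2DsRed+ cells. The HoxA part is 0.815 to 18.5% in NG2DsRed+/S100GFP+ libraries and at least 28.7% in the other 18 libraries.

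Paralogs, which share a number and a close sequence but lie in different clusters, show the same turn gene by gene. Per length, Hoxb7 was above Hoxa7 in 9 of 9 PSC libraries, in 2 of 8 S100GFP+ and in 2 of 10 NG2DsRed+ libraries. Hoxb2 was above Hoxa2 in 9 of 9, 0 of 8 and 2 of 10, Hoxb3 above Hoxa3 in 8 of 9, 1 of 8 and 4 of 10, and Hoxb9 above Hoxa9 in 8 of 9, 0 of 8 and 0 of 10. Antisense transcripts cover 52.9% of the exon bases of Hoxb3, 27.3% of Hoxb2, 25.4% of Hoxa3 and 20.4% of Hoxa7. Without strand the levels per length of these genes are uncertain. Only for number 5, of the 5 numbers with both a HoxA and a HoxB gene tested, did HoxA stay ahead in most PSC libraries: Hoxb5 was above Hoxa5 in 2 of 9, 0 of 8 and 0 of 10. Number 4 was led by Hoxb4 and number 8 by Hoxd8 in all 3 cell types by the median. By position, the share of paralogs 9 to 13 in the Hox level had a median of 13.1% in PSCs (4.01 to 20.4), 28.0% in S100GFP+ (24.8 to 36.4) and 24.1% in NG2DsRed+ libraries (17.9 to 31.3), and that of paralogs 5 to 8 was 67.5%, 53.6% and 57.3%. PSC libraries lay below each S100GFP+ library in the posterior share but overlapped NG2DsRed+ libraries.

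**Figure D5:**
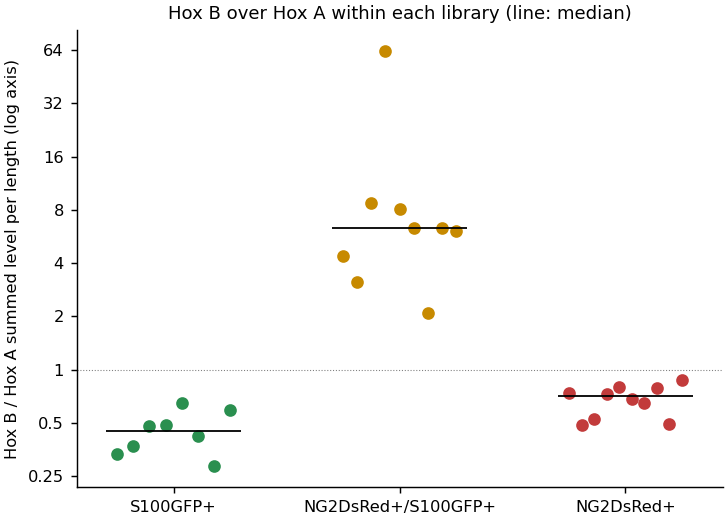
Summed level per length of the HoxB genes divided by that of the HoxA genes within each library, on a log axis, by cell type; points are libraries, lines are medians, and the dotted line is a ratio of 1. The 9 NG2DsRed+/S100GFP+ libraries lie at 2.09 or more and the other 18 at 0.875 or less.

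S100GFP+ cells had lower levels than NG2DsRed+ cells of 10 of the 25 Hox genes, where 15.2% of all genes tested were lower, and of 0 higher, where 18.1% of all genes were higher (33.3% in either direction). At an unadjusted p under 0.05 edgeR had 0 higher too, and DESeq2 called 1, Hoxd11, described below. The groups overlapped in all 25, while 11.6% of all genes tested separated them (7.21% higher and 4.38% lower). By cluster 5 of 8 HoxB genes were lower, 2 of 7 HoxA, 1 of 7 HoxC and 2 of 3 HoxD. In HoxB these were Hoxb2 (-1.88 ± 0.41, adjusted p = 5.7e-04), Hoxb3 (-2.05 ± 0.58, adjusted p = 0.0062), Hoxb4 (-1.21 ± 0.31, adjusted p = 0.003), Hoxb5 (-1.30 ± 0.46, adjusted p = 0.0298) and Hoxb8 (-2.54 ± 0.82, adjusted p = 0.0172). Hoxd8 (-0.99 ± 0.17, adjusted p = 2.2e-05), Hoxc6 (-1.03 ± 0.27, adjusted p = 0.0029) and Hoxa5 (-0.997 ± 0.31, adjusted p = 0.0117) were lower too. Hoxa9 (-1.16 ± 0.39, adjusted p = 0.0216) did not pass without S100GFP+ library 11 (adjusted p = 0.0514). Hoxb5 did not pass when any 1 of S100GFP+ libraries 1, 3, 14 and 22 and NG2DsRed+ library 21 was left out (adjusted p between 0.0531 and 0.0635) or S100GFP+ libraries 14, 17 and 22 together (-1.14, adjusted p = 0.1249), and Hoxd4 (-1.66 ± 0.64, adjusted p = 0.046) was lost without any 1 of 17 libraries. Hoxa10 differed least, by -0.07 ± 0.34, interval -0.77 to 0.63. Further genes passed without S100GFP+ libraries 14, 17 and 22: Hoxa2 (-1.77, adjusted p = 0.0141), Hoxa7 (-1.32, adjusted p = 0.0096), Hoxb6 (-2.98, adjusted p = 0.0013), Hoxb7 (-1.54, adjusted p = 0.008) and Hoxb9 (-5.35, adjusted p = 2.9e-04, again against 1 count). Each of these 5 also passed without library 17 alone. The number lower was 17 without S100GFP+ libraries 14, 17 and 22 and PSC libraries 18 and 31. In this comparison the fibroblast and macrophage markers were higher in S100GFP+ cells in 9 of 11 and 8 of 8, and the pericyte markers were lower in 11 of 11, and their part was not tested.

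The 14 Hox genes that missed the filter had 78 counts in all over the 9 PSC libraries, 209 over the 8 S100GFP+ and 265 over the 10 NG2DsRed+ libraries. The HoxA members among them followed the tested ones: Hoxa4 had 15, 39 and 103 counts, Hoxa6 11, 35 and 68, and Hoxa11, a gene of the forearm and the uterus, 3, 30 and 64, in PSCs, S100GFP+ and NG2DsRed+ cells. Hoxa13, of the hand and foot, had 0, 11 and 8 counts, and 10 of the 11 were in S100GFP+ library 22. Hoxb1 had 0, 5 and 4, Hoxb13 3, 4 and 0, Hoxc12 1, 4 and 0, Hoxc13 4, 6 and 4, Hoxd1 2, 4 and 0, Hoxd12 0, 12 and 0 and Hoxd13 2, 4 and 1 counts. Of the 26 Hoxd3 counts in PSCs, 23 came from library 18, and Hoxd3 had 9 and 6 in the other cell types. Low counts of a pair of posterior HoxD genes were spread over S100GFP+ libraries. Hoxd11, which patterns the forearm and shank, had 32 counts in 7 of 8 S100GFP+ libraries, of which 21 lay outside libraries 14, 17 and 22, against 2 counts in 1 PSC library and 4 in 3 NG2DsRed+ libraries. Hoxd10 had 14 counts spread over 8 of 8 S100GFP+ libraries, against 9 counts in 1 PSC library and 3 in 1 NG2DsRed+ library. With no filter on low counts edgeR called 5 Hox genes higher in S100GFP+ than in NG2DsRed+ cells (Hoxb13, Hoxc12, Hoxd1, Hoxd11 and Hoxd12), where 18.3% of 44705 genes were called higher, and DESeq2 called 1, Hoxd11 (adjusted p = 0.01). Outside libraries 14, 17 and 22 the S100GFP+ libraries had 0 of the 4 Hoxb13 counts, 0 of the 4 Hoxc12 counts, 3 of the 4 Hoxd1 counts and 2 of the 12 Hoxd12 counts. A total of 0 counts, as for Hoxa13, Hoxb1 and Hoxd12 in PSCs, allows up to 3 counts over that cell type's libraries, by counting error alone.

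The TALE cofactors were present in every cell type. Counts of this and the following lists stand beside the shares over all genes tested, 22.9% higher and 24.1% lower against S100GFP+ and 20.9% and 23.1% against NG2DsRed+ cells. Of the 9 tested, 2 were higher and 3 lower in PSCs than in S100GFP+ cells, with a median log2 difference of -0.10 beside 0.04 over all genes tested, and 1 was higher and 3 lower than in NG2DsRed+ cells (median -0.21 beside 0.02). Pbx3 (0.06 ± 0.25 and 0.03 ± 0.24), Pknox1 (0.13 ± 0.15 and 0.12 ± 0.15) and Meis3 (-0.41 ± 0.29 and -0.21 ± 0.27) passed in neither PSC comparison. Meis2, a marker of proximal limb, fell furthest: it was at 0 to 3.37 CPM in PSCs, below each S100GFP+ (5.22 to 25.6) and NG2DsRed+ library (5.04 to 21.2), or -3.50 ± 0.54 (adjusted p = 3.7e-06) and -2.77 ± 0.52 (adjusted p = 6.1e-05). Meis1 was -1.21 ± 0.37 (adjusted p = 0.0075) and -1.24 ± 0.35 (adjusted p = 0.0046), and Pknox2 -1.15 ± 0.32 (adjusted p = 0.0038) and -0.97 ± 0.30 (adjusted p = 0.01). Pbx4, at 0.737 to 7.18 CPM in PSCs, was higher than in both (2.08 ± 0.66, adjusted p = 0.0105, and 2.12 ± 0.60, adjusted p = 0.005). Pbx2 was higher than in S100GFP+ cells (0.89 ± 0.19, adjusted p = 2.5e-04) and 0.16 ± 0.17 from NG2DsRed+ cells.

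Noncoding genes of the clusters were measured as well. Of the 18 listed 15 have a row in the table and 5 passed the filter. Hoxb3os was at 1.72 to 25.6 CPM in PSCs (median 18.3), 0 to 1.80 in S100GFP+ (median 1.10) and 1.73 to 19.5 in NG2DsRed+ libraries (median 6.94), 3.95 ± 0.64 above S100GFP+ cells (adjusted p = 8.4e-06). Hoxb5os was at 0.101 to 10.1 CPM in PSCs (median 3.63), had 5 counts in all in S100GFP+ libraries and was at 0 to 2.43 CPM in NG2DsRed+ libraries (median 0.282). It was higher in PSCs than in S100GFP+ (4.86 ± 0.99, adjusted p = 1.8e-04) and NG2DsRed+ cells (2.41 ± 0.74, adjusted p = 0.0084), whereas Hoxb5 itself was lower than in NG2DsRed+ cells. Hotairm1, a transcript of the anterior HoxA cluster, was lower in PSCs than in S100GFP+ (-1.002 ± 0.39, adjusted p = 0.0364) and NG2DsRed+ cells (-2.72 ± 0.39, adjusted p = 1.1e-06). Halr1, beside the anterior end of HoxA, was lower than in NG2DsRed+ cells (-2.28 ± 0.53, adjusted p = 7.5e-04) and 0.21 ± 0.56 from S100GFP+ cells. The exons of Hoxb3os overlap those of Hoxb3 and Hoxb2, so without strand their counts cannot be told apart there.

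Genes beside the clusters, which are not Hox genes but share their chromosomal neighbourhood, were listed beside them. Of 9 tested, 1 was higher and 1 lower in PSCs than in S100GFP+ cells, and 2 higher and 1 lower than in NG2DsRed+ cells. Skap2, beside HoxA and known from leukocytes, was at 1.69 to 7.18 CPM in PSCs, 31.1 to 105 in S100GFP+ and 18.0 to 34.8 in NG2DsRed+ libraries (-3.75 ± 0.25, adjusted p = 5.1e-13, and -2.67 ± 0.23, adjusted p = 1.4e-10), with no overlap. Cbx5, beside HoxC, was higher (1.04 ± 0.22, adjusted p = 2.1e-04, and 0.57 ± 0.20, adjusted p = 0.021), and Lnpk, beside HoxD, was higher than in NG2DsRed+ cells (0.51 ± 0.17, adjusted p = 0.016).

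Retinoic acid, made by the Aldh1a enzymes and removed by Cyp26 enzymes, switches on anterior Hox genes in the embryo, and the genes of that pathway and of Cdx were followed as a list. Of 14 tested, 3 were higher and 5 lower in PSCs than in S100GFP+ cells, with a median of -0.18 and beside 22.9% and 24.1% of all genes tested, and 4 higher and 8 lower than in NG2DsRed+ cells, with a median of -0.70 and beside 20.9% and 23.1% of all genes. Rxrg, a retinoid receptor found in Schwann cells, was at 73.7 to 130 CPM in PSCs, at most 4.77 in S100GFP+ and 0 to 1.78 in NG2DsRed+ libraries (5.72 ± 0.35, adjusted p = 9.2e-14, and 6.73 ± 0.33, adjusted p = 1.4e-15). The retinoic acid enzyme Aldh1a2 went the other way, at 0 to 2.50 CPM in PSCs, 21.8 to 174 in S100GFP+ and 0.356 to 12.0 in NG2DsRed+ libraries (-7.46 ± 0.76, adjusted p = 1.9e-09, and -3.30 ± 0.70, adjusted p = 3.2e-04). Aldh1a1 (-4.16 ± 0.49, adjusted p = 3.6e-08) and Aldh1a3 (-2.46 ± 0.29, adjusted p = 3.9e-08) were lower than in S100GFP+ cells, and Cyp26b1 (-3.86 ± 0.60, adjusted p = 5.3e-06) and Gdf11 (-2.16 ± 0.31, adjusted p = 1.1e-06), a signal for posterior Hox genes, lower than in NG2DsRed+ cells.

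Polycomb genes, which keep silent Hox genes silent, were higher in PSCs than in S100GFP+ cells in 10 of 20 and lower in 2 (median 0.49), where 22.9% and 24.1% of all genes tested were. They were higher than in NG2DsRed+ cells in 7 and lower in 2 (median 0.17), where 20.9% and 23.1% of all genes were. Ezh2, the catalytic subunit that methylates histone H3 and a gene of dividing cells, was at 25.8 to 94.8 CPM in PSCs, 11.8 to 30.6 in S100GFP+ and 6.49 to 19.2 in NG2DsRed+ libraries (1.45 ± 0.26, adjusted p = 4.1e-05, and 2.19 ± 0.25, adjusted p = 2.9e-08). Phc1 was higher in both comparisons (1.30 ± 0.18, adjusted p = 4.0e-07, and 0.80 ± 0.16, adjusted p = 1.6e-04), Cbx2 (1.21 ± 0.48, adjusted p = 0.0374) and Mtf2 (1.00 ± 0.17, adjusted p = 1.9e-05) were among those higher than in S100GFP+ cells, and Phf19 (1.85 ± 0.38, adjusted p = 1.8e-04) and Cbx8 (0.71 ± 0.26, adjusted p = 0.0254) among those higher than in NG2DsRed+ cells. Of 12 Trithorax genes, which keep active Hox genes active, 4 were higher and 1 lower than in S100GFP+ cells (median 0.20) and 1 higher than in NG2DsRed+ cells (median -0.18). The 4 largest differences from S100GFP+ cells were those of the demethylase gene Kdm6b (-1.10 ± 0.26, adjusted p = 7.9e-04), Dpy30 (0.93 ± 0.32, adjusted p = 0.017), Psip1 (0.78 ± 0.19, adjusted p = 0.0011) and Ash2l (0.69 ± 0.14, adjusted p = 1.7e-04), and against NG2DsRed+ cells the gene that rose was Ash2l (0.37 ± 0.13, adjusted p = 0.0246).

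Other patterning factors of limb and trunk mesoderm were low in PSCs. Of 13 tested, 11 were lower and 1 higher in PSCs in each comparison, with median log2 differences of -2.97 from S100GFP+ and -3.07 from NG2DsRed+ cells. Tbx5, the forelimb T-box gene, was at 0 to 0.648 CPM in PSCs, 5.68 to 16.7 in S100GFP+ and 0.157 to 1.96 in NG2DsRed+ libraries (-6.41 ± 0.64 from S100GFP+, adjusted p = 1.4e-09). Emx2, of the shoulder and pelvic girdles (-5.22 ± 0.82, adjusted p = 5.1e-06, and -3.78 ± 0.80, adjusted p = 2.9e-04), Twist1, of mesenchyme (-4.76 ± 0.41, adjusted p = 6.2e-11, and -3.71 ± 0.39, adjusted p = 4.3e-09), and Tbx18, of pericytes and limb mesenchyme (-3.51 ± 0.42, adjusted p = 5.4e-08, and -4.07 ± 0.42, adjusted p = 3.8e-09), fell in both, and Meox1, a somite gene, fell from NG2DsRed+ cells (-3.32 ± 0.38, adjusted p = 3.3e-08). The 1 that was higher, chosen for mention after its values were seen, was Tbx4, the hindlimb T-box gene, at 0 to 10.5 CPM in PSCs, 0 to 2.60 in S100GFP+ and 0.152 to 1.78 in NG2DsRed+ libraries (2.07 ± 0.74, adjusted p = 0.0223, and 2.38 ± 0.69, adjusted p = 0.0056). Both calls held under each alternative that tested the gene for 8 Hox genes lower in PSCs, among them Hoxa5, Hoxa7, Hoxa9, Hoxa10, Hoxc5, Hoxc8 and Hoxc11. Markers of several other cell types were lower in PSCs as well. Against S100GFP+ cells these were 11 of 11 fibroblast and 8 of 8 macrophage and leukocyte markers, beside 24.1% of all genes tested. Of 11 pericyte and smooth muscle markers 5 were lower and 2 higher, and 2 of 8 endothelial markers were lower, near the share over all genes. Against NG2DsRed+ cells the lower ones were 11 of 11 fibroblast, 9 of 11 pericyte and smooth muscle and 8 of 8 endothelial markers, beside 23.1% of all genes. Of 8 macrophage and leukocyte markers 3 were lower and 1 higher there. The endothelial markers summed to 111 to 641 CPM in PSCs, 132 to 2608 in S100GFP+ and 1378 to 3383 in NG2DsRed+ libraries, and the pericyte and smooth muscle markers to 1079 to 1783, 259 to 1736 and 7482 to 16241 CPM. The part of these cells in the HoxA and HoxC levels was not tested.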

How the data were processed

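The authors sequenced RNA amplified with the SMART-Seq v4 kit, which does not mark strand, from cells sorted out of pooled muscles of 1 mouse per sample. They trimmed reads with ea-utils and Btrim, and the submitters' processing notes name HISAT2, HTSeq and GRCm38. Tool versions, annotation and strand setting were not given in the sources used here. The deposited values are raw counts per gene from the authors' HTSeq step. The count table holds 27 of the 36 labelled libraries (9 NG2DsRed+/S100GFP+, 8 S100GFP+ and 10 NG2DsRed+), and the other labelled libraries were not analysed here. The study's methods removed failed samples and kept 1 S100GFP+ library fewer than the table holds, without saying which, so each of the 8 was used. Of 52636 gene IDs 52489 (99.72%) were matched to GENCODE M21 on GRCm38 for names, coordinates and merged exon lengths.

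Totals were 5221655 to 9592875 counts. The limit given for genes without a count covers counting error only, since PCR copies are counted. Intervals of fold changes come from the quasi-likelihood fit, whose spread includes that between libraries. No pair of libraries of a cell type was identical, and the closest pairs differed by more than counting noise, with a ratio of chi-square to its degrees of freedom from 8.10 upwards. Counts were scaled by TMM and filtered with filterByExpr (minimum count 10), which left 15330 genes. A single quasi-likelihood model over the 3 cell types (edgeR 4.0.16, limma 3.58.1, R 4.3.3) gave each comparison, with Benjamini-Hochberg adjustment over all genes and a threshold of 0.05; fold changes use the prior count 0.125 of edgeR and errors are SE. The procedure was tested on simulated data. Alternatives were DESeq2 1.42.0, other size factors, no filter, pairs of cell types alone, limma-voom, a prior count of 2, the share of 3 abundant transcripts as a term, and leaving out libraries. Figures were drawn with matplotlib 3.10.9 in Python 3.11.15.

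The Hox genes and the other gene lists were chosen with earlier results of these data known. Named with values were the 10 largest changes past the threshold in each comparison, the 5 highest levels per cell type, the Hox cofactors and up to 4 members of each other list and comparison. Further Hox genes are given so that the 39 are accounted for, in counts and sums at least: the values of 1 Hox gene and 1 cofactor are not reported here. Promoter windows are from RefSeq (GRCm38.p6).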

Additional observations from a re-analysis of the deposited data

Results flagged for a closer look

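In 5 of 72 groups (24 Hox genes in 3 cell types, 6.94%) 1 library lay apart from the rest by Dixon's criterion, taken on log2 levels. Chance alone meets it in about 1 in 20 independent groups of normally spread values. The groups here share libraries across genes and are not independent. NG2DsRed+/S100GFP+ library 18 accounted for 3 of the 5: it had the highest Hoxb4 level, 33.3 CPM with the next at 10.6, the lowest Hoxa5 level, 0.175 CPM with the next at 0.956, and the lowest Hoxb6 level, 0.175 CPM with the next at 1.47. Library 18 also had the fewest genes with a count, 14616. NG2DsRed+ library 2 had the highest Hoxb3 level, 6.95 CPM with the next at 2.16, and the lowest Hoxc4 level, 0.709 CPM with the next at 1.95.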

How the results depend on the processing

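Of the tests of single Hox genes under the alternatives, 2575 kept their side of the threshold, 60 newly passed, 48 no longer passed and 0 were counted as reversed. Estimates that did not pass could still change sign. For Hoxb2 between PSCs and NG2DsRed+ cells they ran from -0.14 to 0.37. Leaving out 1 library at a time gave 16 to 20 Hox genes past the threshold between PSCs and S100GFP+ cells (5 to 8 higher, 10 to 12 lower), 15 to 17 between PSCs and NG2DsRed+ cells (0 higher) and 8 to 14 between S100GFP+ and NG2DsRed+ cells (0 higher). Fitting PSCs and S100GFP+ cells alone gave 10 in all and 6 lower, with 16 of the 25 genes left to test, and dropping the filter gave 18 lower. Between S100GFP+ and NG2DsRed+ cells limma-voom called 18, each lower, and the fit without S100GFP+ libraries 14, 17 and 22 and PSC libraries 18 and 31, an alternative chosen after seeing the data, called 17, each lower, whose cause was not tested. In that comparison DESeq2 called 1 higher and the fit with no filter 5, genes that the filter removes. The HoxB share in PSCs was 42.4% with CPM in place of levels per length. No paired analysis was possible because the mouse of origin of a library is not given with the samples. Libraries of different cell types from the same mouse, if there were any, were treated as independent. Low counts limit the anterior HoxA genes and the 14 genes that were not tested.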
